A study of Mus musculus with 30 samples.

Results

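Disease-associated microglia genes were examined as 9 named transcripts: Cst7, Trem2, Tyrobp, Lpl, Spp1, Gpnmb, Itgax, Clec7a and Cd9. A row was taken when its gene symbol equalled one of 10 listed names. The 9 symbols each matched 1 of the 55573 gene rows, and the remaining name, Axl-independent, is not a gene symbol and has no row. Polyadenylated RNA was sequenced from the retinal pigment epithelium (RPE) of mice at postnatal day 25 and from bone marrow-derived macrophages (BMDMs) after 7 days of differentiation in L929-conditioned medium. All libraries are labelled with the strain C57BL/6J. B6 WT mice (6 RPE and 3 BMDM libraries) were compared with 3 lines without functional MERTK, the receptor through which RPE cells and macrophages engulf photoreceptor debris and dying cells. Mertk-/-V1 mice (6 RPE and 3 BMDM libraries) carry a deletion of exon 17 that was made in 129P2 embryonic stem cells and backcrossed to B6, so that a 129P2 segment of chromosome 2 remains around Mertk. The other lines were made directly in B6 (3 RPE and 3 BMDM libraries each). Exon 18 is lacking in Mertk-/-V2, and exons 3 and 4 were removed by CRISPR/Cas9 in Mertk-/-V3. Both of these lines carry part of their genome from the NJ substrain of B6, and this part is larger in Mertk-/-V3. B6 WT mice are of the J substrain, so substrain differs together with the allele. What substrain adds to the comparisons of these lines was not tested. In Mertk-/-V1 the 129P2 segment differs from B6 WT together with the allele, and the 2 cannot be told apart here. RPE was used directly without culture or treatment, and male and female mice were used. The comparison asks whether genes of the disease-associated state changed in each line, and whether they changed more than Csf1r, a gene commonly read as a measure of macrophage and microglia number.

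Microglia are the resident macrophages of the retina and brain. Near dying neurons, lipid or protein deposits they lower their homeostatic genes and turn on a shared set of phagocytic, lipid-handling and lysosomal genes, known as the disease-associated program. TREM2 is a lipid-sensing receptor of these cells that signals through the adaptor TYROBP (DAP12), and the later part of the program depends on it. CLEC7A (dectin-1) is a receptor for beta-glucans, ITGAX (CD11c) is an integrin subunit, CST7 (cystatin F) inhibits lysosomal cathepsins, LPL releases fatty acids from lipoproteins, SPP1 (osteopontin) is a secreted phosphoprotein, GPNMB is a lysosomal and melanosomal glycoprotein, and CD9 is a tetraspanin. Several of these genes are also used by other cells of the eye, and GPNMB is known as a melanosome protein of pigment cells.

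In GRCm38 the genes lie on 6 chromosomes. The receptors and their adaptor are Trem2 (ENSMUSG00000023992, chr17:48346401-48354147, plus strand), Clec7a (ENSMUSG00000079293, chr6:129461591-129472779, minus strand), Itgax (ENSMUSG00000030789, chr7:128129547-128150657, plus strand) and Tyrobp (ENSMUSG00000030579, chr7:30413760-30417585, plus strand). The secreted proteins are Cst7 (ENSMUSG00000068129, chr2:150570415-150578944, plus strand), Lpl (ENSMUSG00000015568, chr8:68880491-68907448, plus strand) and Spp1 (ENSMUSG00000029304, chr5:104435118-104441050, plus strand). The remaining membrane proteins are Gpnmb (ENSMUSG00000029816, chr6:49036546-49070929, plus strand) and Cd9 (ENSMUSG00000030342, chr6:125460266-125494791, minus strand). Values are summed over the exons of each gene. Clec7a is annotated as a polymorphic pseudogene in the GENCODE release used for the locations, and Cd9 is tagged as overlapping another locus, so some reads of Cd9 may belong to its neighbour. Cst7 shares chromosome 2 with Mertk (chr2:128698956-128802894), the locus whose surroundings are of 129P2 origin in Mertk-/-V1 mice. The paper bounds the 129P2 segment by microsatellite markers, and whether Cst7 lies inside it was not tested.

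The 250 bases before the transcription start are printed for Clec7a, Trem2 and Itgax, because these are the members whose normalized counts, with no reference gene, passed an adjusted p in a comparison that follows (RefSeq, GRCm38.p6). Capitals mark the core GAGGAA, a PU.1-type motif, read on either strand. PU.1 is the transcription factor that defines the macrophage lineage.
Clec7a (chr6:129472780-129473029, minus strand): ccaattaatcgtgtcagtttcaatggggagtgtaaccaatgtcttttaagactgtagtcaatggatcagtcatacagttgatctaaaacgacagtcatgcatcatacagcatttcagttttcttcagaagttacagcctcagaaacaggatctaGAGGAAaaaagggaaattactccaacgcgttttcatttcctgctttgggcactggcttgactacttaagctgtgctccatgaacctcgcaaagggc
Trem2 (chr17:48346151-48346400, plus strand): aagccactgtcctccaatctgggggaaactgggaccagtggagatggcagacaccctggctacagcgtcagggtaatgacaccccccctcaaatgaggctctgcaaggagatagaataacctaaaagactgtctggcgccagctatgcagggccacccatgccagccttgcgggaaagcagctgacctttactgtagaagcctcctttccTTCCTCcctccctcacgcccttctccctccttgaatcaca
Itgax (chr7:128129300-128129549, plus strand): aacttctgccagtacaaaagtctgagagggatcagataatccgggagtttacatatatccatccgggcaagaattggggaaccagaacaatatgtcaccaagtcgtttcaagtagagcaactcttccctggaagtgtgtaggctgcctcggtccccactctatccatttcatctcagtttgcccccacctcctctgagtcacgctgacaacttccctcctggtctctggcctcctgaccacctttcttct
Of the 9 members, 7 had a promoter sequence in the reference table, and Tyrobp and Lpl did not. GAGGAA was found in the 250-base windows of Clec7a, Trem2 and Spp1, and 23.3% of all 32851 mouse promoters hold it. CATGTG, an M-box type motif of pigment cell promoters, was found in the window of Cd9 and is held by 12.3% of promoters. CACGTG, an E-box type motif of lysosomal genes, was found in none of the 7 and is held by 6.02% of promoters. Both strands were searched. CATGTG and CACGTG are both forms of the E-box CANNTG, and GAGGAA is not. These matches describe letters in a window and not occupied sites.

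Values are normalized counts, meaning reads per gene divided by 1 size factor per library. RPE libraries held 14137666 to 34124049 reads in genes and BMDM libraries 16629659 to 25653814. Mertk itself was lower in RPE of Mertk-/-V1 (-1.46 ± 0.20 (SE) on the log2 scale, limma adjusted p = 0.00267) and of Mertk-/-V3 (-2.01 ± 0.25 and 0.00222). It was not lower in Mertk-/-V2, where 3565 to 5311 normalized counts were measured against 2638 to 3924 in B6 WT. The RPE libraries held their defining transcripts: the sum over 10 RPE markers was 218000 to 897000 normalized counts, against at most 54.0 in any BMDM library. They also held rod transcripts (sum over 10 genes 31900 to 861000) and microglial transcripts, with all 12 microglia markers above 0 in every RPE library.

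Several RPE libraries stood apart. Mertk-/-V1 replicates 5 and 6 had the lowest Rpe65 of all 18 libraries (21757 and 13235 normalized counts, against 58354 to 105278 in B6 WT). Mertk-/-V1 replicate 3 held neutrophil transcripts, with 249.7 normalized counts of Csf3r and 678 of S100a9, where the B6 WT libraries held 28.3 to 34 and 18.3 to 107.9. In B6 WT and Mertk-/-V1 together, replicates 4 to 6 also differed from replicates 1 to 3, with 1741 genes past the thresholds between these sets. In BMDMs, Mertk-/-V2 replicate 3 stood apart by high Cx3cr1 and Olfml3. Fits that leave out such libraries are given for members that passed an adjusted p, and not for Cst7 or Spp1 in RPE. Mertk-/-V2 and Mertk-/-V3 RPE, numbered 1 to 3, were compared with B6 WT and Mertk-/-V1 libraries of both sets.

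In B6 WT RPE the members spanned a wide range of levels. Per length, as RPKM (reads scaled to exon length and to library depth, mean ± SD over 6 libraries), Gpnmb was the most abundant at 183 ± 40.8, above Csf1r at 51.3 ± 7.07 and Cd9 at 47.0 ± 8.82, whose ranges overlapped. Spp1 (7.83 ± 1.57), Lpl (6.40 ± 1.55) and Tyrobp (4.99 ± 0.706) followed, each overlapping the next. The remaining members were far lower. Clec7a stood at 0.557 ± 0.14, and Cst7 (0.303 ± 0.108), Trem2 (0.261 ± 0.0198) and Itgax (0.186 ± 0.0401) had overlapping ranges. Their B6 WT values rest on 18 to 61 reads for Clec7a, 19 to 36 for Trem2, 12 to 24 for Itgax and 3 to 10 for Cst7, so counting error alone is large for Cst7 and Itgax. In bulk RNA a change in the number of cells of a type and a change in transcript per cell cannot be told apart.

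Clec7a and Trem2 were the members that rose in Mertk-/-V1 RPE. Clec7a measured 35.4, 38.7, 59.3, 33.3, 31.5 and 33 normalized counts in the 6 B6 WT libraries and 82.6, 95.7, 77.4, 88.1, 108.1 and 157.4 in the 6 Mertk-/-V1 libraries. Every Mertk-/-V1 library was above every B6 WT library. The log2 fold change was 1.37 ± 0.19 (SE; limma on log2(normalized count + 1), adjusted p = 0.00284), and Clec7a was the 1 member of 9 past the study's thresholds for the adjusted p (under 0.05) and for the change (2.38-fold or more). Of all 18832 genes tested, 28 (0.149%) passed them.

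Trem2 measured 30.8, 36.3, 35, 35.2, 31.5 and 33 normalized counts in B6 WT RPE and 62.6, 73, 40.3, 86.9, 113 and 142.8 in Mertk-/-V1 RPE. The groups did not overlap, although Mertk-/-V1 replicate 3 lay just above the B6 WT range. The log2 fold change of 1.23 ± 0.23 passed the adjusted p (0.0239) and fell short of the fold threshold. On adjusted p alone, Clec7a and Trem2 were the 2 members called higher, where 54 of all genes (0.287%) were.

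Tyrobp, whose product carries the TREM2 signal, measured 80.2, 104.3, 95.2, 99.9, 65.5 and 78.5 normalized counts in B6 WT RPE and 158.8, 148.8, 147.8, 146.1, 153.1 and 251.9 in Mertk-/-V1. The groups did not overlap, and the log2 fold change of 0.92 ± 0.20 had an adjusted p of 0.0612. Itgax likewise did not overlap, with 17.6 to 27.5 (median 22.4) in B6 WT and 33.2 to 72 in Mertk-/-V1, and its log2 fold change was 1.00 ± 0.29 (adjusted p = 0.247). Trem2, Tyrobp, Itgax and Clec7a are thus 4 of 9 members with all Mertk-/-V1 libraries above all B6 WT libraries, where 107 of all genes (0.568%) were.

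The secreted members varied more. Cst7 measured 5.6, 10.6, 9.7, 11.1, 3.9 and 6.3 normalized counts in B6 WT RPE and 23.3, 12.3, 9.5, 26.6, 43.7 and 86.6 in Mertk-/-V1. Replicates 5 and 6 were the highest and replicate 3 lay within the B6 WT range, and the log2 fold change of 1.67 ± 0.45 did not pass (adjusted p = 0.198). Spp1 ranged from 222.9 to 399.8 in B6 WT and from 380.1 to 920.9 in Mertk-/-V1, with overlap (0.74 ± 0.21, adjusted p = 0.245), and its 2 highest libraries were again replicates 5 and 6. The abundant members differed by less than the spread between libraries: Lpl -0.21 ± 0.17, Gpnmb -0.08 ± 0.22 and Cd9 0.17 ± 0.21 (adjusted p = 0.859, 0.952 and 0.897). Over the 9 members the median log2 fold change was 0.92, against 0.02 over all genes, and 6 of 9 had an unadjusted p under 0.05, where 6.81% of all genes did.

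**Figure D1:**
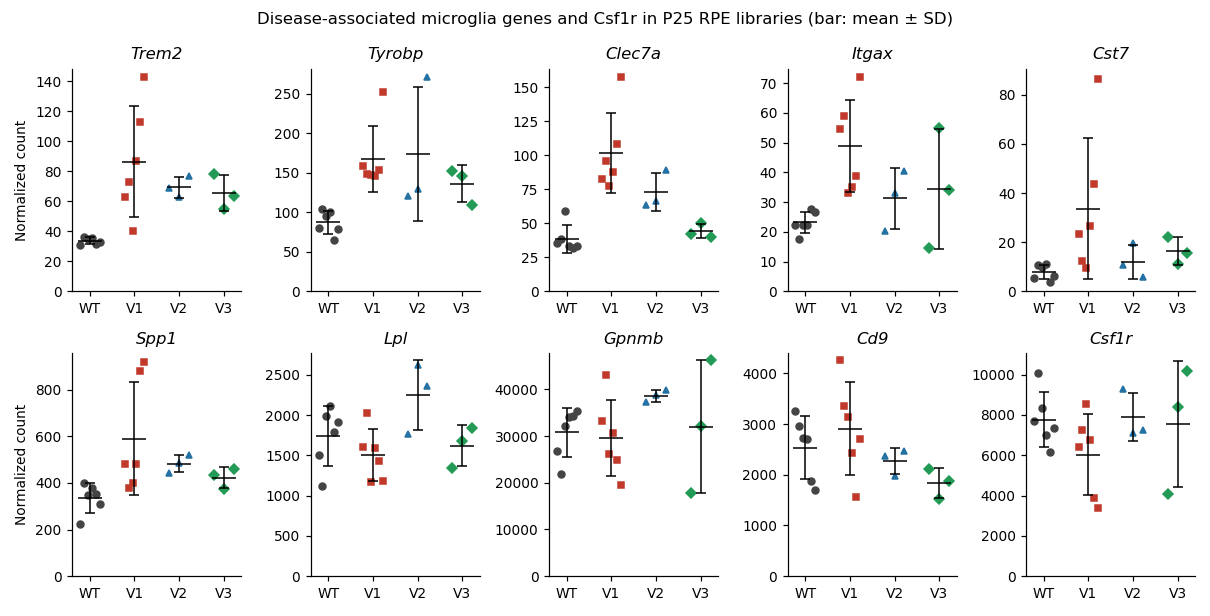
Normalized counts (y axis, linear, 1 panel per gene) of the 9 members and Csf1r in RPE by genotype (x axis: B6 WT and the knockout lines). Points are libraries and bars are the mean ± SD. Trem2, Tyrobp, Itgax and Clec7a of all 6 Mertk-/-V1 libraries lie above all 6 B6 WT libraries, while Lpl, Gpnmb, Cd9 and Csf1r overlap.

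The calls in Mertk-/-V1 RPE moved with some of the libraries that stood apart. Without Mertk-/-V1 replicates 5 and 6 the log2 fold change was 1.17 ± 0.19 for Clec7a (adjusted p = 0.0106) and 0.90 ± 0.19 for Trem2 (adjusted p = 0.0724). Without replicate 3 they were 1.44 and 1.42 (adjusted p = 0.00274 and 0.00248), so that Trem2 also passed the fold threshold. Leaving out 1 RPE library at a time, Clec7a kept an adjusted p of at most 0.00997 in all 18 fits, whereas Trem2 stayed under 0.05 in 10 of 18 (up to 0.0678, and above 0.05 without any one of the B6 WT libraries or without Mertk-/-V1 replicate 4 or 5). Within replicates 1 to 3 the fold changes were 0.95 ± 0.24 for Clec7a and 0.73 ± 0.27 for Trem2, and within replicates 4 to 6 they were 1.78 ± 0.29 and 1.73 ± 0.27. All 4 were positive, and none passed an adjusted p with 3 libraries per group (0.292, 0.526, 0.509 and 0.479). With the replicate number as a block in B6 WT and Mertk-/-V1 alone, Clec7a had an adjusted p of 0.051 and Trem2 of 0.0886. The block over all RPE libraries gave 0.00967 and 0.0333.

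In Mertk-/-V2 RPE no member was called, with 3 of 9 at an unadjusted p under 0.05 (5.47% of all genes), and edgeR and DESeq2 on the recovered reads called none either. Of all genes 11 (0.0584%) were called. Trem2 measured 68.5, 62.8 and 76.6 normalized counts, Tyrobp 120.9, 129 and 271.8, and Clec7a 63.7, 66.2 and 89.5, each above the whole B6 WT range. Their log2 fold changes were 1.02 ± 0.29, 0.90 ± 0.25 and 0.93 ± 0.24 (adjusted p = 0.568, 0.565 and 0.471). Spp1 (443.9 to 518.7) and Gpnmb (37275 to 39782) were also above all B6 WT libraries, making 5 of 9 members, where 700 of all genes (3.72%) were. Itgax measured 20.1, 33.1 and 40.4 and Cst7 10.5, 19.5 and 6, both overlapping B6 WT.

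In Mertk-/-V3 RPE again no member was called, with 2 of 9 at an unadjusted p under 0.05 (11.1% of all genes) and none by edgeR or DESeq2, where 12 of all genes (0.0637%) were called by limma. Trem2 measured 78.1, 54.9 and 63.2 normalized counts, Tyrobp 152.8, 145.9 and 109.5, and Cst7 22.3, 11.2 and 15.4. These 3 of 9 members lay above all B6 WT libraries, where 517 of all genes (2.75%) did, and had log2 fold changes of 0.93 ± 0.29, 0.64 ± 0.25 and 0.99 ± 0.56 (adjusted p = 0.448, 0.449 and 0.473). For Cst7 the lowest Mertk-/-V3 library, at 11.2, differed from the highest B6 WT library, at 11.1, by less than counting error. The same held for Tyrobp, at 109.5 and 104.3. Clec7a, at 42.4, 49.9 and 40.1, lay inside the B6 WT range (0.22 ± 0.24, adjusted p = 0.681). Itgax spread from 14.5 to 54.9.

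Set against the mean of both B6-made lines, Mertk-/-V1 RPE held no called member, with 3 of 9 at an unadjusted p under 0.05 (9.56% of all genes) and none by edgeR or DESeq2. Among all genes 18 (0.0956%) were called. Clec7a had the smallest adjusted p of the members (0.80 ± 0.19, adjusted p = 0.166), and Cst7 (0.93 ± 0.45, 0.539) and Itgax (0.62 ± 0.29, 0.517) were more variable. For Trem2 (0.25 ± 0.23, 0.765) and Tyrobp (0.15 ± 0.20, 0.865) the differences were about as large as their errors. Trem2 and Tyrobp, 2 of 9 members, exceeded all B6 WT libraries in all 12 knockout libraries, where 24 of all genes (0.127%) did. The lowest knockout library was close to the highest B6 WT library for Trem2 (40.3 and 36.3 normalized counts) and for Tyrobp (109.5 and 104.3). Both gaps are smaller than counting error. A difference between the lines was not shown here for any member. The paper, which used DESeq2, names Cst7 as differentially expressed in RPE between Mertk-/-V1 and the B6-made lines. Against B6 WT, DESeq2 on the recovered reads also called Cst7 in Mertk-/-V1 RPE. The 3 lines share the same B6 WT libraries.

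**Figure D2:**
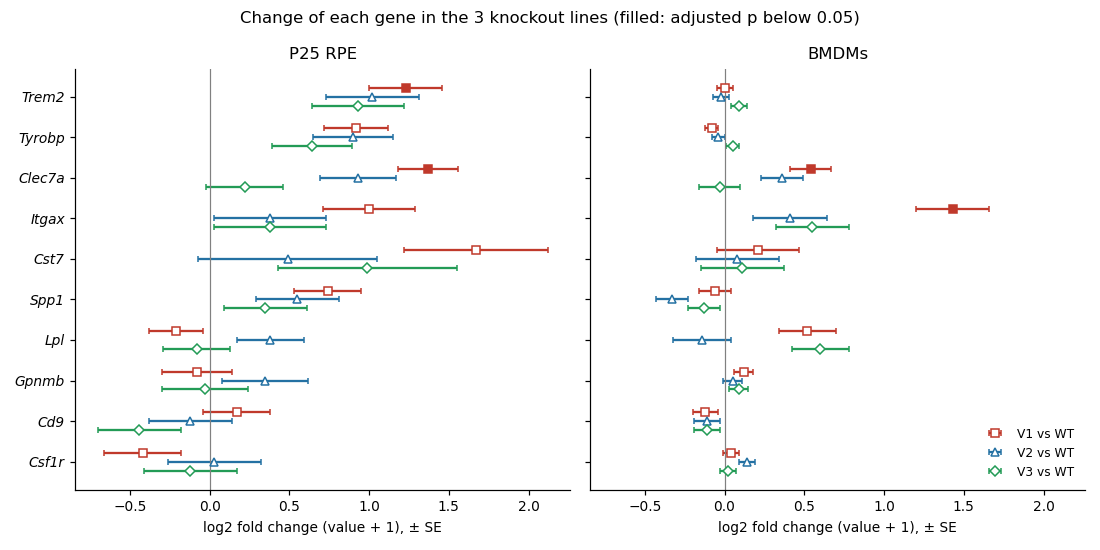
Log2 fold change against B6 WT (x axis, mean ± SE from limma) of each member and Csf1r (y axis) for Mertk-/-V1, Mertk-/-V2 and Mertk-/-V3, in RPE and in BMDMs. Filled points have an adjusted p under 0.05. In RPE these are Clec7a (1.37) and Trem2 (1.23) in Mertk-/-V1, and in BMDMs Itgax (1.43) and Clec7a (0.54) in Mertk-/-V1.

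Csf1r, the chosen measure of cell number, did not rise in Mertk-/-V1 RPE. It measured 7682, 10101, 8316, 6988, 6146 and 7370 normalized counts in B6 WT and 6406, 7243, 8518, 6751, 3873 and 3404 in Mertk-/-V1, the last pair being replicates 5 and 6 (-0.42 ± 0.24, adjusted p = 0.787). Without these replicates the difference was -0.09. With each member expressed relative to Csf1r, the median over all genes shifted by 0.44 on the log2 scale, and all 9 members were positive with a median of 1.35. Clec7a was called (1.79 ± 0.36, adjusted p = 0.0435), where 33 of 18831 genes (0.175%) were. Cst7 (2.09 ± 0.62, 0.241), Trem2 (1.65 ± 0.43, 0.149), Itgax (1.42 ± 0.38, 0.162) and Tyrobp (1.35 ± 0.37, 0.178) did not pass. The Clec7a call relative to Csf1r held in 3 of 18 fits that each left out 1 library (adjusted p from 0.0244 to 0.133), and without replicates 5 and 6 no member was called. The blocked model of B6 WT and Mertk-/-V1 alone called 4 members, Trem2, Tyrobp, Itgax and Clec7a. In Mertk-/-V2 and Mertk-/-V3 RPE none of the 9 reached an unadjusted p under 0.05 relative to Csf1r.

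In these RPE libraries Csf1r did not follow leukocyte transcripts. Per length it stood at 51.3 RPKM in B6 WT RPE, where Cx3cr1 stood at 1.59 ± 0.335 and Adgre1 at 0.809 ± 0.159 (the microglial fractalkine receptor and the F4/80 antigen). In B6 WT BMDMs, by contrast, Csf1r (237 ± 7.26) and Adgre1 (223 ± 18.7) were close. Over the 18 RPE libraries Csf1r correlated with the mean log2 level of 10 RPE markers (Pearson r = 0.94, permutation p = 2e-05, adjusted over 20 relations 0.00013, and Spearman rho = 0.81, adjusted p = 0.00087). The correlation was 0.86 without the 2 libraries farthest from the median, 0.95 within genotype and replicate set, 0.82 in B6 WT and 0.96 in Mertk-/-V1. With the mean of 4 leukocyte genes without Csf1r (Aif1, Cx3cr1, Adgre1 and Ptprc) its r was -0.41 (adjusted permutation p = 0.12; rho = -0.36). The genes with the most similar profile to Csf1r were Npr1, Rdh5 and Baiap2l2 (r = 0.99 each), of which Rdh5 is a visual cycle enzyme of the RPE.

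The members were set against the same measures. Tyrobp (r = 0.86), Clec7a (0.84), Trem2 (0.82) and Cst7 (0.75) correlated with the 4 leukocyte genes (adjusted permutation p = 0.00013, 0.0003, 0.00013 and 0.0014, with rho from 0.72 to 0.85). Without the 2 farthest libraries r was 0.79, 0.80, 0.78 and 0.66. Part of this is the difference between genotypes, since within genotype and replicate set r was 0.64, 0.53, 0.28 and 0.37. Spp1 (0.69, adjusted permutation p = 0.0042, rho = 0.65) and Itgax (0.66, 0.0069, rho = 0.70) also correlated with them, with 0.19 and 0.29 within genotype and set. Cst7 (-0.74, adjusted permutation p = 0.0027), Trem2 (-0.64, 0.0069) and Spp1 (-0.63, 0.014) were inversely related to the RPE markers over all 18 libraries. Their rho of -0.46, -0.36 and -0.21 did not pass. The inverse relation was not present within B6 WT, where r was 0.92, 0.8 and 0.31, against -0.95, -0.89 and -0.96 in Mertk-/-V1. Gpnmb correlated with the RPE markers (r = 0.72, adjusted permutation p = 0.0032, rho = 0.58). For Gpnmb r was 0.42 without the 2 farthest libraries, 0.80 within genotype and set, -0.56 in B6 WT and 0.80 in Mertk-/-V1. Lpl had r = 0.51 with the RPE markers (adjusted permutation p = 0.048, rho = 0.45), which fell to 0.29 without the 2 farthest, and Cd9 was related to neither (0.16 and 0.19). All these values share the size factor of their library.

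**Figure D3:**
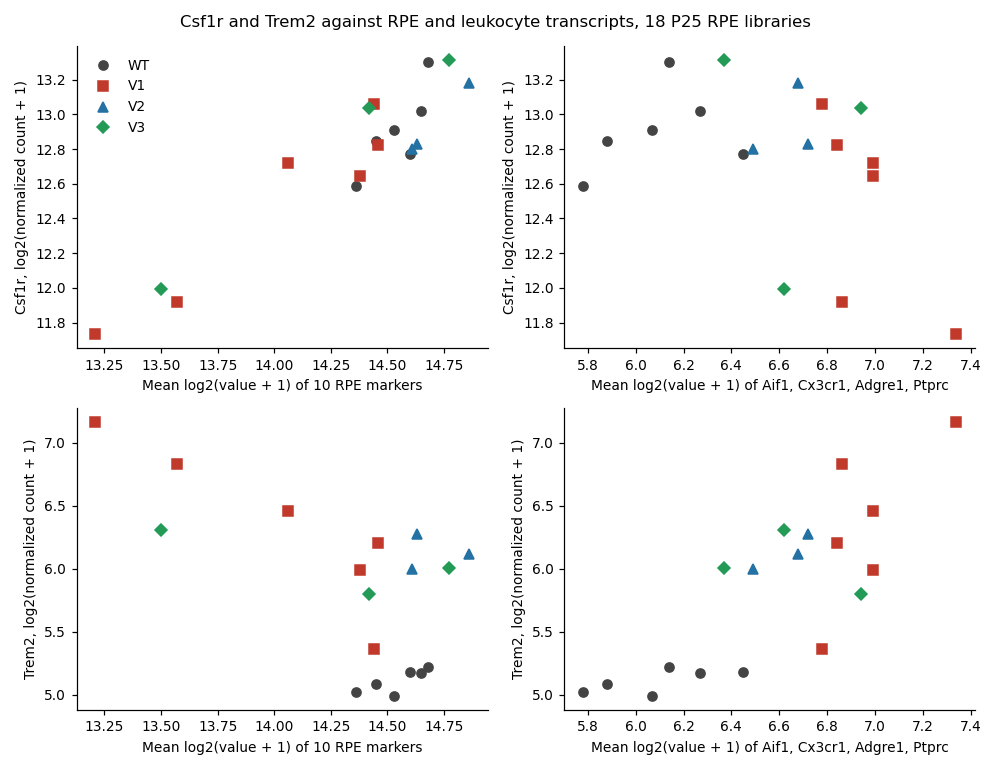
Csf1r and Trem2 (y axis, log2 normalized count) against the mean log2 level of 10 RPE markers and against the mean log2 level of 4 leukocyte genes (x axis) in the 18 RPE libraries, coloured by genotype. Csf1r rises with the RPE markers (r = 0.94), and Trem2 rises with the leukocyte genes (r = 0.82).

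The genes nearest to each member over the 18 libraries are given as a description. Trem2 was nearest to C1qc, C1qb and Ctss (r = 0.94, 0.93 and 0.91), complement and cathepsin genes of microglia and macrophages. Cst7 was nearest to Fcrls, C1qb and Mpeg1 (0.94, 0.88 and 0.86), Tyrobp to Fcgr3, C1qa and Adgre1 (0.89, 0.88 and 0.87), and Clec7a to C3ar1 and Cebpd (0.91 and 0.89). Itgax was nearest to Gbp6, Xaf1 and Stat2 (0.83, 0.81 and 0.80), which are interferon-response genes. Spp1 was nearest to Pithd1, Cd84 and 2610301B20Rik (0.88 each). Gpnmb was nearest to Tyrp1, Lix1l and Pmel (0.98, 0.97 and 0.97), of which Tyrp1 and Pmel are melanosome genes. Lpl was nearest to Trpm1, Gfra1 and Pkp4 (0.91, 0.88 and 0.88), and Cd9 to Crot, Bcl10 and Tmem123 (0.96, 0.96 and 0.95).

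Because Csf1r followed the RPE markers, the members were also expressed relative to the 4 leukocyte genes, a reference chosen after the values were seen. The mean log2 level of these genes was 5.78 to 6.45 in B6 WT, 6.78 to 7.34 in Mertk-/-V1, 6.49 to 6.72 in Mertk-/-V2 and 6.37 to 6.94 in Mertk-/-V3 RPE, so that Mertk-/-V1 did not overlap B6 WT. The lowest Mertk-/-V1 library, at 6.78, was replicate 3, which held neutrophil transcripts. Its Ptprc measured 204.7 normalized counts, against 94.8 to 120.3 in the other Mertk-/-V1 libraries. What neutrophils add to this reference was not tested. Relative to the 4 leukocyte genes the median over all genes in Mertk-/-V1 was -0.85. Clec7a was higher (0.50 ± 0.20, adjusted p = 0.0286), below the fold threshold. Trem2 (0.36 ± 0.24, 0.176), Tyrobp (0.06 ± 0.18, 0.788), Itgax (0.13 ± 0.30, 0.694), Spp1 (-0.12 ± 0.22, 0.613) and Cst7 (0.80 ± 0.42, 0.0883) did not pass. Lpl (-1.07 ± 0.22, adjusted p = 0.000416), Gpnmb (-0.95 ± 0.28, 0.00616) and Cd9 (-0.70 ± 0.22, 0.00897) were lower, near the median of all genes. On adjusted p alone 22 of all genes (0.117%) were higher under this reference and 14036 (74.5%) were lower. With so many genes passing, the adjustment is lenient, and the adjusted p of Clec7a is little stricter than an unadjusted p.

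**Figure D4:**
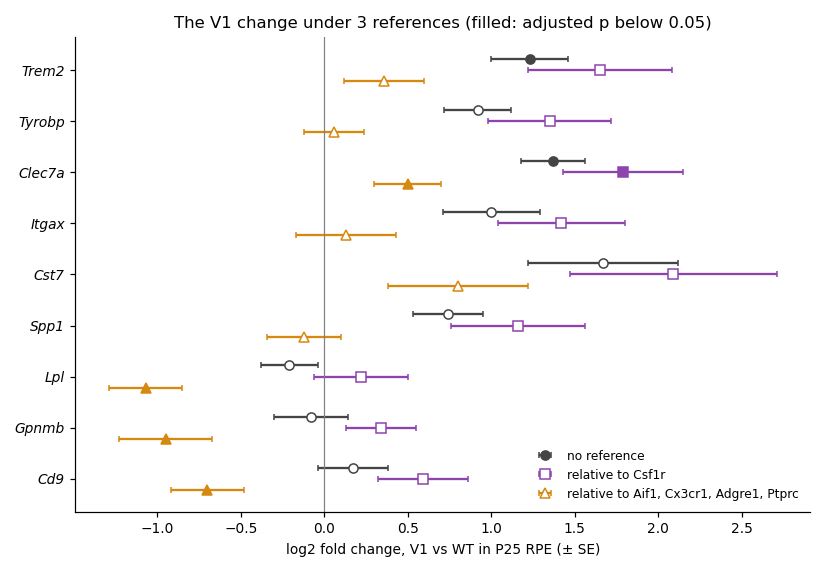
Log2 fold change of Mertk-/-V1 against B6 WT RPE (x axis, mean ± SE) for each member (y axis) with no reference, relative to Csf1r and relative to the 4 leukocyte genes. Clec7a moves from 1.37 to 1.79 and 0.50, and Trem2 from 1.23 to 1.65 and 0.36.

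Other markers moved beside the members in Mertk-/-V1 RPE, and their part in the members' values was not tested. The sum over 11 microglia markers without Csf1r was 1970 to 2550 normalized counts in B6 WT and 2310 to 3610 in Mertk-/-V1. Of the 12 microglia markers 11 were positive and none passed an adjusted p of 0.05, with a median log2 fold change of 0.81. The largest were P2ry12 (1.18 ± 0.36, adjusted p = 0.317) and Fcrls (1.17 ± 0.28, 0.102), both of the homeostatic state. All 9 tested macrophage and monocyte markers were positive and 1 passed, Fcgr1 (1.13 ± 0.18, adjusted p = 0.00506), an Fc receptor. Of the 10 RPE markers 9 were negative and none passed, with a median of -0.57 and Rpe65 at -1.25 ± 0.34 (adjusted p = 0.211). Neutrophil markers were summed to 62.9 to 153 in B6 WT and to 88.7 to 1360 in Mertk-/-V1, the highest being replicate 3. The tested neutrophil markers were Csf3r (1.46 ± 0.31, adjusted p = 0.0529), S100a8 (1.21 ± 0.99, 0.859) and S100a9 (0.03 ± 0.78, 0.994). Csf3r was also present in BMDMs, at 441.5 to 587.1 normalized counts, so it is not particular to neutrophils in these data. Rod, Mueller glia, endothelium and fibroblast markers had medians between 0.30 and 0.41, and none of them passed. Of the lymphocyte markers 2 were tested, both negative, and neither passed.

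Further genes of the program and of its signalling were also examined. Of 29 tested genes of an extended disease-associated list, 16 were positive and none passed in Mertk-/-V1 RPE, with a median of 0.07. The largest were Ccl3, a chemokine (2.06 ± 0.66, adjusted p = 0.362), and Cd22, a sialic acid-binding receptor (1.77 ± 0.48, 0.203). Of 14 tested genes that signal from TREM2, CLEC7A and their adaptors, 11 were positive and 2 rose: Fcer1g, the Fc receptor gamma chain (0.98 ± 0.12, adjusted p = 0.00104), and Vav1, a guanine nucleotide exchange factor (0.99 ± 0.18, 0.0139). Fcgr1, Fcer1g and Vav1 did not reach the fold threshold and were named after their values were seen. On adjusted p alone 54 of all genes (0.287%) were higher in this comparison. In Mertk-/-V2 RPE these genes had log2 fold changes of 0.97, 0.69 and 0.40, and in Mertk-/-V3 RPE 0.89, 0.14 and 0.57. None of these values passed an adjusted p.

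In BMDMs several members were among the abundant transcripts without any knockout. Per length in B6 WT (mean ± SD over 3 libraries), Spp1 stood at 3280 ± 194 RPKM, Tyrobp at 864 ± 45.1, Gpnmb at 672 ± 23, and Csf1r at 237 ± 7.26. Cd9 (129 ± 9.5), Lpl (115 ± 9.99) and Trem2 (105 ± 1.9) followed with overlapping ranges. Clec7a (6.45 ± 0.455), Cst7 (2.79 ± 0.634) and Itgax (0.385 ± 0.0552) were the lowest and did not overlap one another.

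Itgax and Clec7a rose in Mertk-/-V1 BMDMs. Itgax measured 40.3, 31 and 42 normalized counts in B6 WT and 72.8, 111 and 132.7 in Mertk-/-V1, without overlap. Its log2 fold change of 1.43 ± 0.23 passed both thresholds (adjusted p = 0.00336), where 57 of 13420 genes (0.425%) did. Without Mertk-/-V1 replicate 3 it was 1.24 (adjusted p = 0.0223), just under the fold threshold. Clec7a measured 330.5, 369.2 and 341.9 in B6 WT and 420.4, 584.9 and 520.8 in Mertk-/-V1 (0.54 ± 0.13, adjusted p = 0.0286). Leaving out 1 library at a time, Clec7a stayed under an adjusted p of 0.05 in 8 of 12 fits (up to 0.121) and was above it without B6 WT replicate 1 or 2 or Mertk-/-V1 replicate 2 or 3. On adjusted p alone 526 genes (3.92%) were higher.

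The other 7 members were not called in Mertk-/-V1 BMDMs. Trem2 measured 10746, 10533 and 10533 in B6 WT and 10588, 10241 and 11093 in Mertk-/-V1 (0.00 ± 0.05, adjusted p = 0.971). Tyrobp likewise ranged from 11213 to 12021 and from 11007 to 11239 (-0.08). Lpl measured 24238, 22386 and 27346 against 28608, 37342 and 40871, without overlap (0.52 ± 0.18, adjusted p = 0.101). Gpnmb was 0.12 ± 0.06 (0.198), and Cst7, Spp1 and Cd9 lay at 0.21, -0.06 and -0.12. Over the 9 members the median was 0.12.

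**Figure D5:**
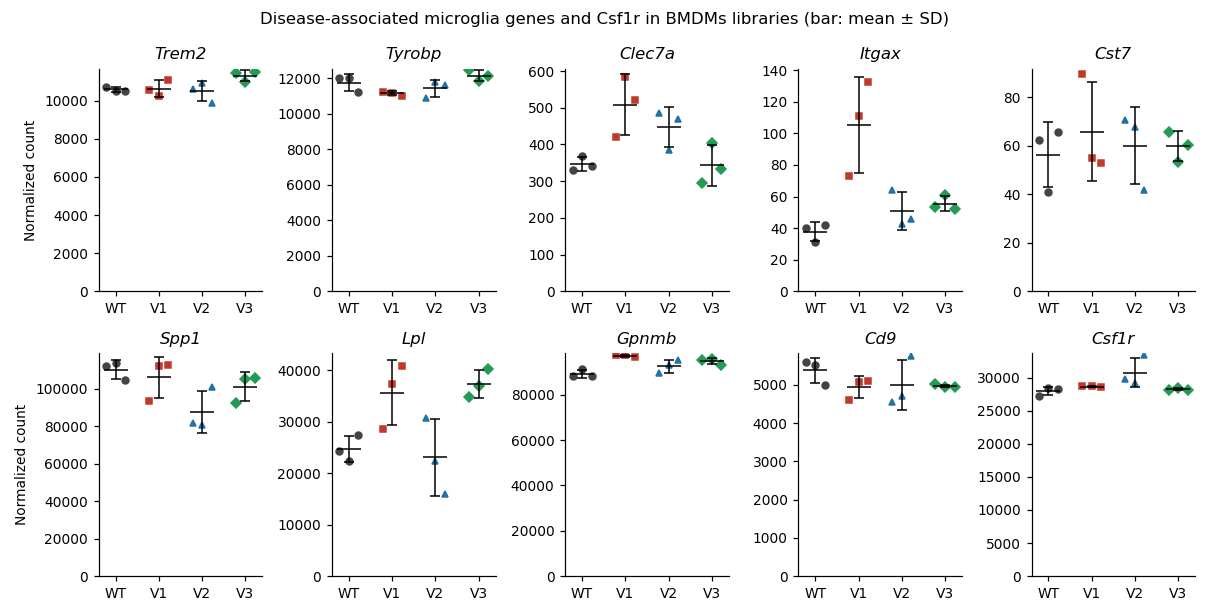
Normalized counts (y axis, linear, 1 panel per gene) of the 9 members and Csf1r in BMDMs by genotype (x axis: B6 WT and the knockout lines), 3 libraries each. Points are libraries and bars are the mean ± SD. Itgax and Clec7a of Mertk-/-V1 lie above B6 WT, while Trem2 stays between 9907 and 11511 in all 12 libraries.

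No member was called in Mertk-/-V2 or Mertk-/-V3 BMDMs, and none by edgeR or DESeq2, where 34 (0.253%) and 21 (0.156%) of all genes were called. In each 2 of 9 members had an unadjusted p under 0.05, close to the share of all genes (21.4% and 15.9%). In Mertk-/-V2, Itgax measured 64.3, 42.4 and 45.6 (0.41 ± 0.23, adjusted p = 0.339), Clec7a 485.2, 385.3 and 470.2 (0.36 ± 0.13, 0.138) and Spp1 81753, 80872 and 100687 (-0.33 ± 0.10, 0.0708). In Mertk-/-V3, Itgax measured 53.5, 60.8 and 52.2 (0.55 ± 0.23, 0.264) and Lpl 34829, 36834 and 40310 (0.60 ± 0.18, 0.125). Itgax was above the B6 WT range in all 9 knockout libraries, where 321 of all genes (2.39%) were, but the lowest of them, at 42.4, differed from the highest B6 WT library, at 42, by less than counting error.

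Itgax was also higher in BMDMs of Mertk-/-V1 than in the mean of both B6-made lines (0.95 ± 0.20, adjusted p = 0.0376), below the fold threshold. It stayed under an adjusted p of 0.05 in 5 of 12 fits that each left out 1 library, with values up to 0.279 (without Mertk-/-V1 replicate 3). On adjusted p alone 89 of all genes (0.663%) were higher in this comparison, and with the fold threshold 26 (0.194%) were called, none of them a member (2 of 9 at an unadjusted p under 0.05, as were 11.8% of all genes, and none by edgeR or DESeq2). Clec7a differed by 0.37 ± 0.12 (adjusted p = 0.214).

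Csf1r was level in BMDMs, at 27215 to 28388 normalized counts in B6 WT and 28563 to 28711 in Mertk-/-V1 (0.04 ± 0.05, adjusted p = 0.73). Relative to it, Itgax was called in Mertk-/-V1 (1.39 ± 0.24, adjusted p = 0.0055), where 49 of 13419 genes (0.365%) were. Clec7a passed the adjusted p (0.50 ± 0.13, 0.0465), where 204 genes (1.52%) were higher on adjusted p alone, and did so in 6 of 12 fits that each left out 1 library (up to 0.192). In Mertk-/-V2 BMDMs, where Csf1r measured 29764, 29204 and 33351 (0.14 ± 0.05, adjusted p = 0.145) and the median of all genes relative to it was -0.14, Spp1 (-0.47 ± 0.11, 0.0115) and Cd9 (-0.25 ± 0.07, 0.024) passed the adjusted p and not the fold threshold. On adjusted p alone 2345 of all genes (17.5%) were lower relative to Csf1r in Mertk-/-V2, so 2 of 9 members is near that share. Leaving out 1 library at a time, Spp1 stayed under 0.05 in 11 of 12 fits (up to 0.0651) and Cd9 in 9 of 12 (up to 0.123). Mertk-/-V2 replicate 3, with the highest Csf1r, stood apart: its Cx3cr1 was 2468 normalized counts against 105.5 and 116 in replicates 1 and 2, and its Olfml3 250.8 against 2.4 and 5. Without it the differences were -0.51 for Spp1 and -0.29 for Cd9 (adjusted p = 0.00212 and 0.0067).

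From the extended list, 4 of 29 genes rose in Mertk-/-V1 BMDMs, where 3.92% of all genes did, with a list median of 0.01. Lilrb4a, an inhibitory leukocyte receptor, passed both thresholds (1.33 ± 0.17, adjusted p = 0.000549). Csf1, the growth factor that binds Csf1r, had 1.11 ± 0.21 (0.00843), and Lgals3 (0.32) and Cadm1 (0.29) rose by less. In Mertk-/-V2, Lilrb4a (0.96 ± 0.17, 0.00919) and Csf1 (0.93 ± 0.21, 0.026) rose as well and Cd52 fell (-0.30, 0.0287), and in Mertk-/-V3 Cadm1 rose (0.28, 0.00988). On adjusted p 301 of all genes (2.24%) were higher and 317 (2.36%) lower in Mertk-/-V2, and 72 (0.537%) were higher in Mertk-/-V3. Lilrb4a also differed between Mertk-/-V1 and the mean of the other lines (0.71 ± 0.15, 0.0348). Of the signalling genes, Malt1 rose in Mertk-/-V1 (0.42, 0.00885) and Card9 in Mertk-/-V2 BMDMs (0.21, 0.0378), both of which act in the pathway from CLEC7A to NF-kappaB. Those of these genes that did not reach the fold threshold were named after their values were seen.

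The effect of the Mertk-/-V1 line was compared between the tissues in a single edgeR model over all 30 libraries. Trem2 was the 1 member called, with a log2 effect in RPE larger than that in BMDMs by 1.33 (edgeR's quasi-likelihood test, adjusted p = 0.0397), where 34 of 18228 genes (0.187%) were. This call held in 4 of 18 fits that each left out 1 library, with adjusted p from 0.0008 to 0.157. For Tyrobp the difference was 1.01 (adjusted p = 0.154), for Clec7a 0.82 (0.372), for Cst7 1.83 (0.445), for Spp1 0.86 (0.416), for Lpl -0.74 (0.521) and for Itgax -0.41 (0.996). The RPE libraries are bulk tissue and the BMDM libraries a macrophage culture, so the effects compared come from different mixtures of cells.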

How the data were processed

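RNA from RPE of the posterior eyecup (18 libraries) and from BMDMs (12 libraries) was sequenced as 150 bp paired-end reads, trimmed with btrim and aligned to GRCm38 with STAR by the authors. The deposited values are normalized counts (a signal scaled by the authors with DESeq2, gene counts divided by 1 size factor per library). The read counter, annotation release and tool versions are not given in the sources used here. Values divided back to whole reads for 100% of entries within 0.01 (largest deviation 0.0005), and depth per library was 14137666 to 34124049 reads. All columns of per-sample values were used.

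Genes with a mean of at least 10 were tested on log2(value + 1) with limma 3.58.1 (R 4.3.3), lmFit and eBayes with trend, over the 4 genotypes of a tissue, with Benjamini-Hochberg adjustment. Called genes passed the study's thresholds, 0.05 for the adjusted p and 2.38-fold for the change in either direction. The same model was fitted to values relative to log2(Csf1r + 1). The tissue interaction used edgeR 4.0.16 on the recovered reads, and DESeq2 1.42.0 was an alternative. The log2 scale with a pseudocount understates changes of low genes, and RPKM was computed from recovered reads and exon lengths of GENCODE for GRCm38. Correlations were tested with 100000 permutations (scipy 1.17.1, two-sided). The models were tested on simulated data first.

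Replicates are labelled as biological, and p-values measure the spread between these libraries. Same-numbered B6 WT and Mertk-/-V1 RPE libraries deviated together from their genotype means (r from 0.1189 to 0.7242). These deviations include the difference between replicates 1 to 3 and 4 to 6. They therefore cannot show that equal numbers are pairs, and the replicate block is given beside the main fits. For the other pairs r was mixed in sign. No pair of libraries agreed within sampling noise.

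The members and all lists were chosen with earlier results of these data known. Named genes were the members, Csf1r and Mertk, up to 4 called genes of each other list, or else the 2 with the largest change, and the 3 genes nearest to each member, of which 1 is not reported here. Library sets, references, filters, normalizations, left-out libraries and tools were varied.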

Additional observations from a re-analysis of the deposited data

Results flagged for a closer look

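The highest or lowest library stood apart from its group in 2 of 20 tests on groups of 6 RPE libraries, where chance flags about 1 in 20. Clec7a was high in B6 WT replicate 3, at 59.3 normalized counts, where the other B6 WT libraries lay between 31.5 and 38.7. This library belongs to the reference group and lies below all Mertk-/-V1 libraries. Tyrobp was high in Mertk-/-V1 replicate 6, at 252 normalized counts, where the other 5 lay between 146.1 and 158.8. The same library had the lowest Rpe65 of all RPE libraries.

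The effect of the Mertk-/-V1 line on Trem2 differed between the tissues, by 1.33 on the log2 scale (edgeR's quasi-likelihood test of the interaction, adjusted p = 0.0397). This call held in 4 of 18 fits that each left out 1 library (adjusted p up to 0.157) and was lost when B6 WT and Mertk-/-V1 libraries were fitted alone. All 6 RPE libraries of Mertk-/-V1 were above B6 WT, while the 3 BMDM libraries overlapped it.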

How the results depend on the processing

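Of 404 counts of members called under other settings, 339 stayed within 1.5 times the reported count, and of 4040 fold changes of single genes 3956 kept direction and side of the threshold. In Mertk-/-V1 RPE (1 member called) the count was 2 on adjusted p alone and with edgeR, 3 with DESeq2 (Clec7a, Trem2 and Cst7), and 0 with array quality weights, within replicates 1 to 3, within replicates 4 to 6, without Mertk-/-V1 replicates 5 and 6, and with the replicate block in B6 WT and Mertk-/-V1 alone. The block over all libraries added 1 call in Mertk-/-V2 RPE (Trem2, adjusted p = 0.0444), where numbers do not pair the libraries, and array weights added 1 in Mertk-/-V3 RPE (Itgax, 1.26). Adjusted p alone gave 2 in Mertk-/-V1 BMDMs and 1 against the mean of the other lines. Relative to Csf1r, Mertk-/-V1 RPE (1 called) gave 0 with the 4-gene or 5-gene reference (the 4 leukocyte genes with Csf1r), a pseudocount of 5, no filter, the replicate block, within either set of replicates, and without replicates 5 and 6, 3 with the set as a term, and 4 with the block in B6 WT and Mertk-/-V1 alone. Adjusted p alone gave 2 in Mertk-/-V1 and 2 in Mertk-/-V2 BMDMs and 1 for Mertk-/-V1 against the other lines. The tissue difference (1 called) gave 2 with DESeq2 (Trem2 and Tyrobp) and 0 with B6 WT and Mertk-/-V1 libraries alone. The causes were not tested.

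Leaving out 1 library gave 0 to 2 calls in Mertk-/-V1 RPE (0 without its replicate 6, where Clec7a was 1.23, and 2 without its replicate 1, 2 or 3), 0 to 1 in Mertk-/-V1 BMDMs, 0 to 2 relative to Csf1r in Mertk-/-V1 RPE, 0 to 1 in Mertk-/-V1 BMDMs and 0 to 1 against the other lines in RPE (1 without Mertk-/-V3 replicate 1), and 0 to 1 for the tissue difference. Signs turned, past the threshold on one side, relative to other references. In Mertk-/-V1 RPE, Gpnmb was -0.69 with the 5-gene and -0.95 with the 4-gene reference, Lpl -0.82 and -1.07, and Cd9 -0.70 with the 4-gene reference. In Mertk-/-V2 BMDMs, Cd9 was 0.05 and 0.12. The replicate block changed no other call.

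Depth limits Cst7 and Itgax in RPE most, with 3 to 10 and 12 to 24 reads in B6 WT.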
